A study of Mus musculus with 42 samples.

Results

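The 8 mouse MAGE-A genes analysed here, Magea1, Magea2, Magea3, Magea4, Magea5, Magea6, Magea8 and Magea10, were taken by symbol, through their Entrez identifiers, from a table of RNA-seq read counts that lists 27179 genes. The list was selected on counts measured in these same libraries, taken here to mean every contrast between them, so the genes' own differences are given as a description, without p-values. Testes of C57BL/6J male mice at 10 dpp (days post-partum) were used to enrich Thy1+ cells, called undifferentiated spermatogonia, and c-Kit+ cells, called differentiating spermatogonia, with magnetic beads, c-Kit+ first and Thy1+ from the flow-through. Mice of the genotype Ddx4-Cre/Chd8F/- are called mutant and lack functional Chd8, a chromatin remodeler gene, in germ cells, whereas Ddx4-Cre/Chd8+/F mice served as controls. Both genotypes carried Cre under the control of the Ddx4 promoter, which is active in germ cells, and a floxed Chd8 allele; the controls kept an intact allele, and the mutants had a null allele in its place. Each of the 4 groups had 3 libraries. The sources used here name 3 male pups per analysis without saying whether each library was a separate animal, so p-values measure the spread between these samples, which may be technical.

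MAGE (melanoma antigen) proteins share a MAGE homology domain, through which they bind RING-type E3 ubiquitin ligases and alter the ligases' activity or targets. The MAGE-A genes belong to the type I group, which lies mostly on the X chromosome. Like others of the group, they are normally transcribed mainly in germ cells of the testis, in mouse especially in spermatogonia. They were discovered as tumor antigens because many cancers switch them on, hence the name cancer-testis antigens, and in somatic cells they are kept silent largely by DNA methylation of their promoters. The type II group, which includes Maged1, Maged2, Mageh1, Magel2 and Ndn, is expressed in many tissues.

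The genes lie in 2 stretches of the X chromosome (genome build mm10, GRCm38), 82.5 Mb apart. The proximal stretch holds Magea4 at chrX:72222017-72222964 on the plus strand and Magea10 at chrX:72381870-72386858 on the minus strand. The distal stretch holds, all on the minus strand, Magea6 at chrX:154924012-154926115, Magea3 at chrX:154948463-154949569, Magea8 at chrX:154985775-154995850, Magea2 at chrX:155027201-155033292, Magea5 at chrX:155053061-155061553 and Magea1 at chrX:155088519-155089790. These are the spans of the exons that were counted, from 1 exon in Magea1, Magea3 and Magea4 to 4 exons in Magea2, Magea8 and Magea10, with counted lengths from 948 bases in Magea4 to 1821 bases in Magea10. No other gene of the count table overlapped any of the 8. In the RefSeq annotation of the same build, Magea3, Magea4, Magea5 and Magea6 begin 9.5, 1.0, 1.6 and 10.0 kb upstream of their counted exons, so their first exons may lie outside the counted part.

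The genes of the distal stretch are close copies of each other. Between their longest exons, identity ranged from 94.5% to 99.3% over 15 pairs (median 96.0%), with Magea1 and Magea2 the most alike pair, whereas the 12 pairs of a distal gene with Magea4 or Magea10 had 63.5% to 84.6%. Only reads with 1 place in the genome were counted, so copies that are alike lose reads. Of all 100-base windows in the counted exons, 71.4% of those of Magea2 and 63.1% of those of Magea1 were also found elsewhere in the assembled chromosomes. The share was 28.6% for Magea5, 24.8% for Magea8, 19.4% for Magea3 and 17.6% for Magea6. It was 0% for Magea4 and Magea10, whose windows of this length were all unique, so that reads of this length or longer from this pair were not shared with copies. With 50-base windows the share was 2.34% for Magea4 and 0% for Magea10. The values of Magea1 and Magea2 are the most uncertain as levels, while a genotype difference within a gene rests on the same unique bases in every library.

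**Figure D1:**
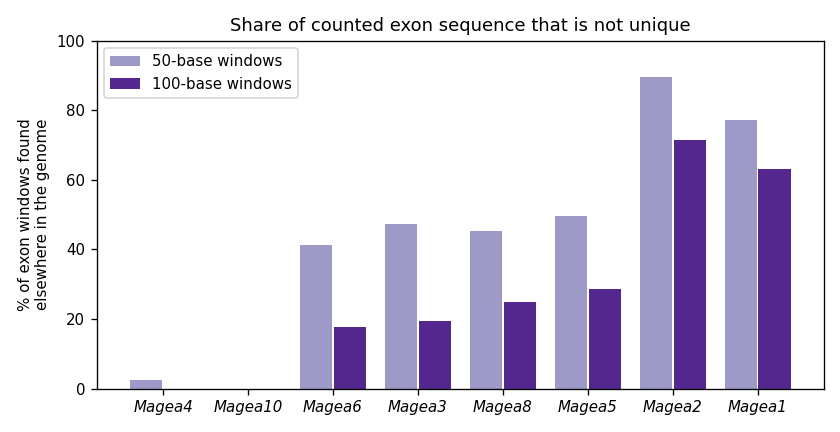
Share of windows of counted exon sequence that are also found elsewhere in the assembled chromosomes, in percent, for windows of 50 bases (light) and 100 bases (dark). Magea4 and Magea10 have almost no shared windows at either length, while 71.4% of the 100-base and 89.5% of the 50-base windows of Magea2 are shared.

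Promoters are shown because Magea8, the member with the highest level, and Magea2 have nearly the same one. RefSeq promoter windows of 300 bases (250 before to 50 after a start, GRCm38.p6) were found for all 8 genes, each at the start of the counted exons. For Magea1, Magea2, Magea8 and Magea10 this is also the most upstream RefSeq start, to within 21 bases, and 3 of these 4 windows are printed. The windows of Magea3, Magea4, Magea5 and Magea6 lie 1.0 to 10.0 kb downstream of that start, inside the gene, and are not counted as promoters here. The unprinted window of Magea1 was 86.6% identical over 298 bases to that of Magea3. Whether it is a promoter was not tested. Capitals mark the letters CGGAAG, an ETS core, which begin 37 bases before the start of Magea8 and 52 bases before that of Magea2.
Magea8, chrX:154995801-154996100, minus strand: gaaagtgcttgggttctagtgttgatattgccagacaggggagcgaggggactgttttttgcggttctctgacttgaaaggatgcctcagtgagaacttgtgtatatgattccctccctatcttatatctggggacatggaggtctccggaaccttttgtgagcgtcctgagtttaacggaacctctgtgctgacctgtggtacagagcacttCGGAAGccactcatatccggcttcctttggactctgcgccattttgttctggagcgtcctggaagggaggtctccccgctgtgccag
Magea2, chrX:155033243-155033542, minus strand: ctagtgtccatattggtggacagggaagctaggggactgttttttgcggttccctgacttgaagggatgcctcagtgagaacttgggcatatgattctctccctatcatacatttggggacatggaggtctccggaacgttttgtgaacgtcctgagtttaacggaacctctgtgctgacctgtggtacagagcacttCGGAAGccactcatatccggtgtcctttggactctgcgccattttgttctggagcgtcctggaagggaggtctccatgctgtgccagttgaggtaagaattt
Magea10, chrX:72386809-72387108, minus strand: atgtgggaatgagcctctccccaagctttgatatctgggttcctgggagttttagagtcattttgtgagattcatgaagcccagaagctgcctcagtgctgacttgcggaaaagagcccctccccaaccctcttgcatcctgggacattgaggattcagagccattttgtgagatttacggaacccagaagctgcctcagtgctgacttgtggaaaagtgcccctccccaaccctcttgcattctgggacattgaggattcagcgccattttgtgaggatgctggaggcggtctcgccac
The windows of Magea8 and Magea2 were 92.6% identical over 285 aligned bases, and each was 62.1% and 61.7% identical to that of Magea10 over 256 and 253 bases. Searched on both strands, CGGAAG was present in 2 of the 4 windows at a gene start, those of Magea2 and Magea8, and in 17.2% of 27025 promoters. The GC box letters GGGCGG were in 0 of these 4 windows and in 35.9% of all promoters. The E-box letters CACGTG were in 0 of 4 and in 7.2% of all promoters. The TATA box letters TATAAA were in 0 of 4 and in 14.2% of all promoters. No match in the 4 windows overlapped that of another motif, and presence or absence of these letters says nothing here about binding. CG dinucleotides, the sites of DNA methylation, numbered 10 in the window of Magea8, 9 in Magea2, 5 in Magea10 and 1 in Magea1. The median over all promoters was 7.

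The libraries held 32266861 to 45396233 counted reads, in which both reads of a fragment were counted. Chd8 itself had means of 272 CPM ± 13.8 and 275 ± 21.3 (SD, n = 3) in control and mutant Thy1+ cells and 284 ± 21.5 and 300 ± 10.4 in control and mutant c-Kit+ cells. CPM are counts per 1000000 reads after TMM normalization over the 12 libraries. The count covers the whole gene, of which only a part is floxed, so it does not check the deletion. The sort was seen in its marker genes, with Thy1 at 11.8 to 17.3 CPM in the Thy1+ libraries and 0.440 to 1.05 CPM in the c-Kit+ libraries, and Kit at 176 to 438 and 633 to 768 CPM. Germ cell markers (Ddx4, Dazl, Mael, Tex14, Sohlh1, Tdrd1, Sall4, Dmrt1) were present in every library. So were markers of somatic cells, with a summed level of 36 somatic and blood markers of 9196 to 15653 CPM in Thy1+ and 2553 to 5804 CPM in c-Kit+ libraries.

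In controls, 7 of the 8 MAGE-A genes were detected in every library. Magea8 had the highest level per length in both populations, with 10.9 CPM per kb of counted exon ± 1.27 (SD, n = 3) in c-Kit+ and 7.83 ± 2.17 in Thy1+ controls. In c-Kit+ controls, Magea5 followed with 8.84 ± 1.08 CPM per kb, Magea4 with 7.45 ± 2.02, Magea10 with 6.35 ± 1.06, Magea3 with 4.90 ± 1.44, Magea6 with 4.20 ± 1.12 and Magea2 with 2.17 ± 0.747. Within this order, the gap between neighbours exceeded the sum of their SDs only between Magea6 and Magea2 among the 7 detected genes. In Thy1+ controls the order was Magea8, Magea5 (6.14 ± 1.08 CPM per kb), Magea10 (4.71 ± 1.04), Magea3 (2.92 ± 0.671), Magea4 (2.42 ± 1.14), Magea6 (2.07 ± 0.769) and Magea2 (1.47 ± 0.412), and only Magea10 and Magea3 were neighbours with a gap larger than the sum of their SDs. The place of Magea2 depends on its shared bases: per kb of exon whose 100-base windows are unique, it took place 3 in c-Kit+ controls with 7.57 ± 2.61 CPM per kb, after Magea8 with 14.5 ± 1.69 and Magea5 with 12.4 ± 1.51. Magea1 had 0 to 2 reads in every library. That is under 3 reads (0.0687 to 0.0958 CPM), taken as the limit that a count of 0 allows for counting error only. Both reads of a fragment were counted, so a limit set in fragments would be higher in reads. Magea1 thus could not be told from absent and entered no test.

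In controls, the c-Kit+ libraries had more MAGE-A RNA in CPM than the Thy1+ libraries. Summed over the 8 genes, the controls had 59.9, 75.7 and 57.9 CPM in c-Kit+ and 34.5, 52.5 and 37.7 CPM in Thy1+ libraries, without overlap. In bulk libraries, fewer cells of a type and less RNA per cell cannot be told apart. Each of the 7 tested genes had a lower fitted level in Thy1+ cells, by 0.40 to 1.59 on the log2 scale (median -0.53, against 0.03 over all 17350 genes tested). Magea4 differed most, with 1.05, 2.78 and 3.06 CPM in Thy1+ controls and 4.95, 8.71 and 7.51 CPM in c-Kit+ controls, a log2 difference of -1.59 ± 0.40 (SE). Magea6 had 2.38, 3.46 and 1.62 CPM against 4.75, 6.52 and 3.87 CPM, a log2 difference of -0.99 ± 0.32. These were the 2 of 7 called lower in Thy1+ controls, where a call needs a difference over 0.5 in size on the log2 scale and an FDR, adjusted over all genes tested, under 0.05 in edgeR's quasi-likelihood test. Of all genes tested, 7.08% were called lower and 20.7% higher. With the replicate number as a block, 4 of 7 were called, Magea3 and Magea5 being added, against 8.38% of all genes. Without the second c-Kit+ control library, none of the 7 was called lower. Without the first or the third Thy1+ or the first c-Kit+ control library 1 was, and without the second Thy1+ control library 5 were. With a library left out, 625 to 2002 of all genes were called lower. The germ cell markers were also lower in Thy1+ controls, with a median log2 difference of -0.39 and 2 of 8 called, and per 1000 CPM of germ cell markers the MAGE-A sum was 18.0, 19.8 and 19.8 CPM in Thy1+ and 20.0, 23.0 and 20.2 CPM in c-Kit+ controls. On that scale the groups did not overlap, but their gap was smaller than the spread within either.

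**Figure D2:**
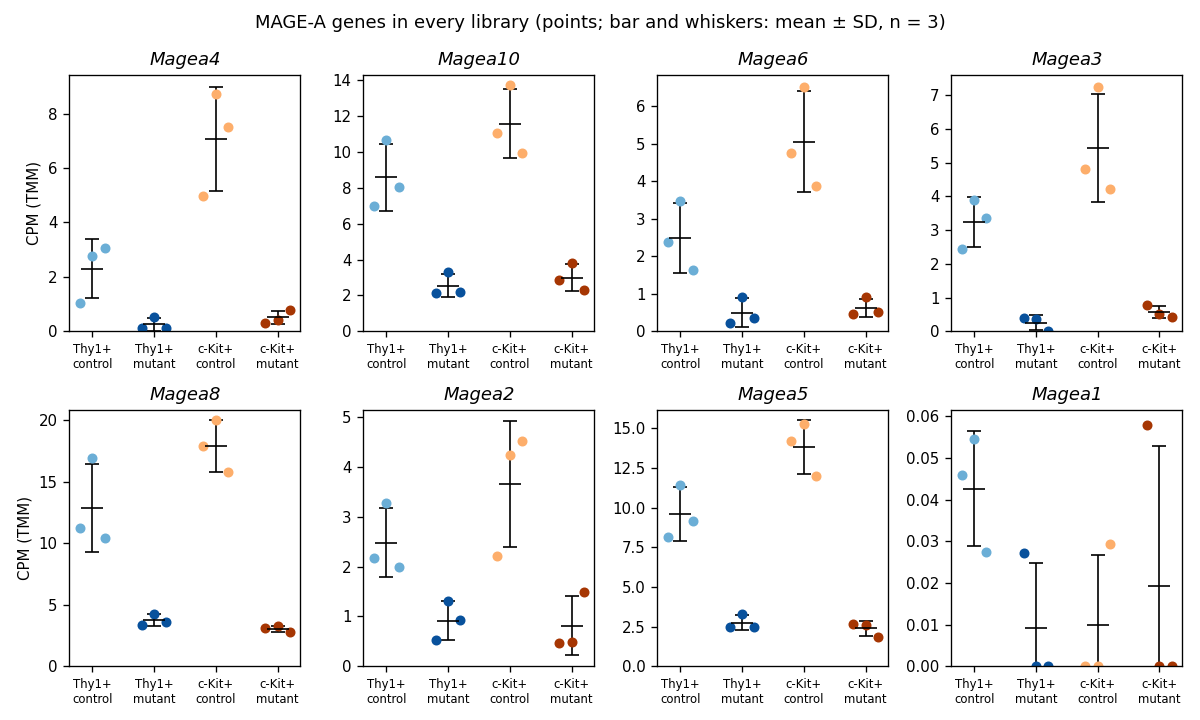
Level of each MAGE-A gene in CPM (TMM-normalized, linear axis from 0, own scale per panel) in each library (points) of the 4 groups, with the mean and SD of 3 libraries. For 7 genes every mutant library lies under every control library of the same population; Magea1 is at 0 to 2 reads throughout.

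In mutant c-Kit+ cells, all 7 MAGE-A genes that could be tested fell. Magea8 went from 18.0, 20.0 and 15.8 CPM in the controls to 3.13, 3.25 and 2.80 CPM in the mutants, a log2 fold change of -2.56 ± 0.14 (SE). Magea5 went from 14.2, 15.3 and 12.0 CPM to 2.67, 2.61 and 1.86 CPM (log2 fold change -2.55 ± 0.18). Every mutant library of both genes was far below every control library, and the 3 mutants lay close together.

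Magea4 and Magea10, whose 100-base windows are unique, bracketed the family by their fitted fold changes. Magea4 went from 4.95, 8.71 and 7.51 CPM to 0.319, 0.431 and 0.791 CPM (log2 fold change -3.79 ± 0.34), so that 7.22% of the control level remained by the fit. Magea10 went from 11.0, 13.7 and 9.95 CPM to 2.84, 3.80 and 2.32 CPM (log2 fold change -1.96 ± 0.21), with 25.7% remaining. By the fitted values the pair, 164.8 kb apart from end to end, thus held both the largest and the smallest fall of the 7. The SEs do not settle either place, as Magea3 had -3.24 ± 0.31 and Magea2 -2.19 ± 0.46.

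The other 3 genes of the distal stretch had fewer reads. Magea3 went from 4.81, 7.24 and 4.23 CPM to 0.784, 0.526 and 0.424 CPM (log2 fold change -3.24 ± 0.31). Magea6 went from 4.75, 6.52 and 3.87 CPM to 0.464, 0.909 and 0.508 CPM (log2 fold change -3.00 ± 0.32). Magea2 went from 2.21, 4.24 and 4.52 CPM to 0.464, 0.479 and 1.50 CPM (log2 fold change -2.19 ± 0.46). The third mutant library was above the other 2 and below all controls, and without it the log2 fold change of Magea2 was -2.97.

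As a count, 7 of 7 were called lower in c-Kit+ mutants, where 7.41% of all 17134 genes tested were, and 7 of 7 had groups that do not overlap with the mutants lower, where 24% of all genes did. The median log2 fold change was -2.56, against 0.01 over all genes, and from the lowest fold change up the 7 genes took places 10 (Magea4) to 106 (Magea10). The list was chosen with this contrast known, so these counts describe the members and support nothing further. Fitted as a single feature, the 8 genes together changed by -2.57 on the log2 scale, a value that does not depend on how reads were divided among the 8.

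In Thy1+ cells the mutants were lower as well. Magea8 had 11.3, 17.0 and 10.4 CPM in the controls and 3.33, 4.27 and 3.58 CPM in the mutants (log2 fold change -1.78 ± 0.24). Magea5 had 8.14, 11.4 and 9.19 CPM against 2.49, 3.30 and 2.46 CPM (-1.79 ± 0.23 on the log2 scale), and Magea10 had 6.99, 10.7 and 8.07 CPM against 2.13, 3.30 and 2.20 CPM (-1.74 ± 0.27 on the log2 scale). In these 3 genes the second library was the highest in both genotypes.

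The genes with fewer reads in Thy1+ cells varied more. Magea4 had 1.05, 2.78 and 3.06 CPM in the controls and 0.109, 0.534 and 0.128 CPM in the mutants, with a log2 fold change of -3.08 ± 0.67. Magea3 had 2.43, 3.90 and 3.36 CPM against 0.410, 0.371 and 0 CPM, with a log2 fold change of -3.56 ± 0.69. The CPM of the third mutant library rests on 0 reads, so that this fold depends on the other 2. Magea6 had 2.38, 3.46 and 1.62 CPM against 0.218, 0.929 and 0.351 CPM (log2 fold change -2.27 ± 0.54). Magea2 had 2.18, 3.27 and 1.98 CPM against 0.519, 1.30 and 0.926 CPM (log2 fold change -1.41 ± 0.40), the smallest of the 7. For each of the 4, all mutant libraries were below all controls. Without the second mutant library the log2 fold changes of Magea4 and Magea6 were -4.24 and -3.13.

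None of the 7 was called in Thy1+ cells by edgeR's quasi-likelihood test, which called 0% of the 17416 genes tested. There, 2151 genes had an unadjusted p under 0.05 and the lowest adjusted p of any gene was 0.141. Same-numbered libraries deviated together, and with the replicate number as a block all 7 were called lower, against 4.92% of all genes. All 7 were also called by edgeR's exact test (1.57% of all genes lower) and by DESeq2 (1.9% of all genes lower). Groups did not overlap, with the mutants lower, in 7 of 7 MAGE-A genes and in 11.1% of all genes. The median log2 fold change was -1.79, against 0.02 over all genes.

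**Figure D3:**
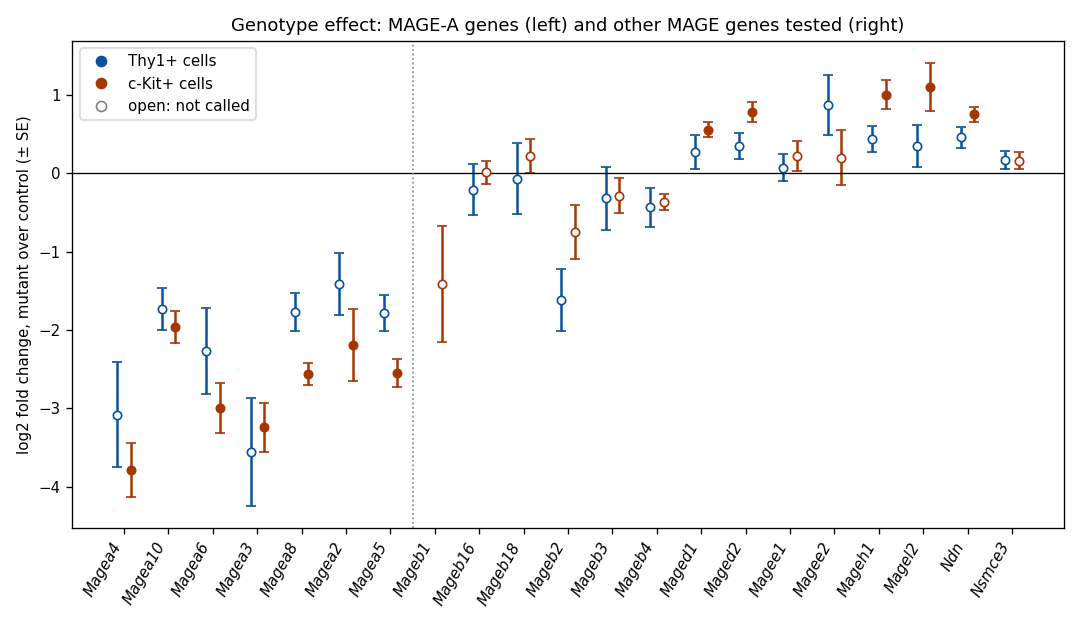
Log2 fold change of mutant over control (points, ± SE of the edgeR fit) in Thy1+ (blue) and c-Kit+ (brown) cells for the 7 MAGE-A genes tested, left of the dotted line, and for the other MAGE genes tested, right of it; filled points were called without a block. The MAGE-A genes lie between -1.41 and -3.79, while the called other MAGE genes lie between 0.55 and 1.10.

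Whether the genotype difference itself differed between the populations was tested in a fit of all 12 libraries. For 6 of 7 genes it was larger in c-Kit+ cells, with a difference of log2 fold changes from -0.16 ± 0.34 (SE) in Magea10 to -0.73 ± 0.27 in Magea8; in Magea3 it was 0.37 ± 0.74. None was called, and no gene of the 18002 tested was (0%), by edgeR's quasi-likelihood test, where 1804 genes had an unadjusted p under 0.05; DESeq2 called 59 genes (0.328%), none of them MAGE-A. The SEs leave room for differences of either sign in Magea2, Magea3, Magea4, Magea6 and Magea10. For Magea5 (-0.70 ± 0.28) and Magea8 the values stayed negative in all 18 alternatives, at -0.93 to -0.55 and -1.06 to -0.60. No alternative called them, so a difference is not established for either gene. Without the second mutant Thy1+ library, which had the highest Magea4, Magea6 and Magea10 of the 3, the values of these genes were 0.50, 0.16 and 0.06, above 0.

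In CPM, the mutants of both populations ended at a like summed level. The 8 genes had 9.23, 14.0 and 9.64 CPM in Thy1+ and 10.7, 12.0 and 10.2 CPM in c-Kit+ mutants, overlapping ranges that started from different control levels. Germ cell markers were somewhat lower in the mutants, at 1396 to 2249 CPM against 1902 to 2648 CPM in Thy1+ cells and at 2213 to 2561 CPM against 2863 to 3289 CPM in c-Kit+ cells. Their median log2 fold change was -0.31 and -0.30, with 0 (2 with the replicate block) and 1 of 8 called lower, the one in c-Kit+ cells being Tex14, needed for bridges between germ cells (-0.75 ± 0.09, FDR = 3.39e-04, edgeR's quasi-likelihood test). Per 1000 CPM of germ cell markers, the MAGE-A sum was 6.61, 6.22 and 6.73 CPM in Thy1+ mutants against 18.0 to 19.8 CPM in controls, and 4.37, 4.69 and 4.61 CPM in c-Kit+ mutants against 20.0 to 23.0 CPM. The mutants thus remained below the controls on this scale, with little spread among the mutants of each population. Here the mutants of the populations were not alike: every c-Kit+ mutant lay below every Thy1+ mutant. The 36 markers of somatic and blood cells summed to 9196 to 12157 CPM in control and 10676 to 15653 CPM in mutant Thy1+ libraries, and to 2553 to 3098 and 4639 to 5804 CPM in c-Kit+ libraries. Of 33 tested in c-Kit+ cells, 24 were called higher in mutants. Of 35 tested in Thy1+ cells, 0 were called higher without and 10 with the replicate block, 6 of 6 Sertoli markers among them; the part of this shift in the MAGE-A values was not tested beyond the ratio to germ cell markers.

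**Figure D4:**
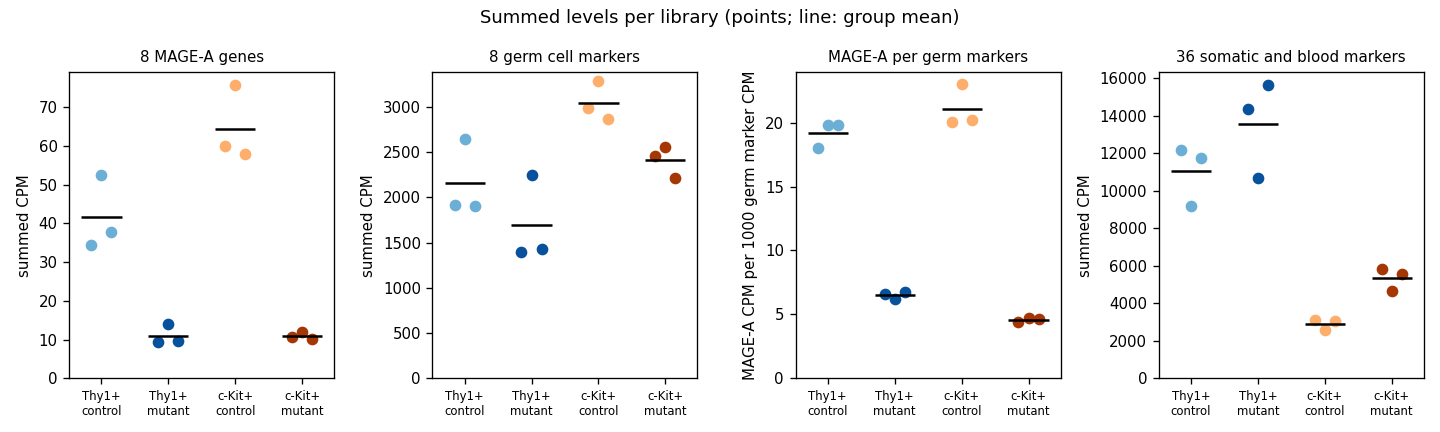
Summed CPM per library (points; line, mean of 3) of the 8 MAGE-A genes, of 8 germ cell markers and of 36 somatic and blood markers, and the MAGE-A sum per 1000 CPM of germ cell markers, on linear axes from 0. The ratio is 18.0 to 23.0 CPM in the controls and 4.37 to 6.73 CPM in the mutants, while the germ cell markers differ far less.

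No other MAGE gene was called lower in c-Kit+ mutants. The table held 16 other MAGE homology domain genes, 14 of them tested in c-Kit+ cells, where 5 were called higher (14.8% of all genes were called higher). All 5 are of the type II group. Ndn, which encodes the growth-restraining protein necdin, went from 58.7, 52.4 and 47.4 CPM to 99.5, 80.5 and 89.4 CPM (log2 fold change 0.75 ± 0.10, FDR = 4.59e-04, edgeR's quasi-likelihood test). Maged2 (0.78 ± 0.12), Maged1 (0.55 ± 0.10), Mageh1 (1.00 ± 0.19) and Magel2 (1.10 ± 0.31) had FDRs of 9.96e-04, 0.0016, 0.00234 and 0.0166 in the same edgeR test. In c-Kit+ mutants these rises stood beside those of the somatic markers (24 of 33 called higher), whose part in them was not tested. In controls, Ndn, Maged2, Mageh1, Magel2 and Magee1 were called higher in Thy1+ than in c-Kit+ cells, by 1.32 to 2.01 on the log2 scale, a comparison in which the 34 tested somatic and blood markers had a median of 0.43, with 13 called higher and 8 lower. Among them, stromal markers had a median of 3.10 (5 of 5 called higher), macrophage markers 2.12 (4 of 4 called higher) and Sertoli markers 0.14 (0 of 6 called), while Leydig markers had -1.46 (4 of 5 called lower) and mast cell markers -2.96 (4 of 4 called lower).

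The Mageb genes are the other type I genes in the table, all X-linked except Mageb3 on chromosome 2. The 6 tested in c-Kit+ cells had log2 fold changes from -1.42 to 0.22, and 0 were called. The lowest was Mageb1, named after its values were seen, at -1.42 ± 0.75 (FDR = 0.16, edgeR's quasi-likelihood test), with at most 1.00 CPM in a library. Mageb4, the one with the most reads, had 93.6, 103 and 80.8 CPM in control and 70.9, 79.6 and 67.1 CPM in mutant c-Kit+ libraries, a log2 fold change of -0.37 ± 0.10 that passed the FDR (0.0146, edgeR's quasi-likelihood test) and missed the fold minimum. Mageb2 had 2.57, 2.37 and 1.49 CPM in control and 0.628, 0.998 and 0.415 CPM in mutant Thy1+ libraries, a log2 fold change of -1.62 ± 0.40 (FDR = 0.24 without and 0.00178 with the replicate block, edgeR's quasi-likelihood test). In c-Kit+ cells its log2 fold change was -0.75 ± 0.35 (FDR = 0.116 in the same edgeR test). Of the remaining genes, Nsmce3, a subunit of the SMC5/6 complex, and Magee1 had log2 fold changes of 0.16 ± 0.10 and 0.22 ± 0.19 in c-Kit+ cells and were not called. In Thy1+ cells 0 of the 13 other genes tested were called without a block, and with it Mageb2 was called lower and Magee2 higher (log2 fold change 0.89 ± 0.32, FDR = 0.0437 in the blocked edgeR fit); of all genes, 3.2% were called higher.

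The other X-linked genes of spermatogonia that were listed and tested also fell in c-Kit+ mutants, with smaller fold changes. In a list of 10, 9 were tested and 9 were called lower in c-Kit+ cells, with a median log2 fold change of -0.90. Taf7l, a germ cell relative of a general transcription factor subunit, went from 469, 617 and 502 CPM to 293, 314 and 291 CPM (log2 fold change -0.84 ± 0.09, FDR = 2.67e-04, edgeR's quasi-likelihood test). Nxf2, an mRNA export factor (-0.85 ± 0.09, FDR = 2.12e-04), Tex11, a meiotic crossover protein (-0.80 ± 0.09, FDR = 2.25e-04), and Usp26, a deubiquitinase (-1.35 ± 0.07, FDR = 2.44e-05), followed in the same edgeR test. In Thy1+ cells their median was -0.74, with 0 of 9 called without and 9 of 9 with the replicate block. The largest fall among the 9 in c-Kit+ cells, that of Usp26, was smaller than the smallest among the MAGE-A genes, that of Magea10. Outside the list, the X-linked Dcaf8l and Trap1a, named below for their pattern, fell further than Magea10 (log2 fold changes -2.12 and -2.11). X-linked genes as a whole did not move one way: of 704 tested in c-Kit+ cells, 114 were called lower and 165 higher. The share called lower was 16.2%, against 7.41% of all genes, and 14.8% of all genes were called higher. Their log2 fold changes ranged from -4.58 to 2.43, with a median of 0.11.

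Few genes for proteins that MAGE proteins bind or act through were called. Of 11 listed, 10 were tested in c-Kit+ cells, 0 were called lower and 1 higher (median log2 fold change -0.07). The called gene was Pja1, an E3 ligase (0.79 ± 0.17, FDR = 0.00492, edgeR's quasi-likelihood test). Trim28, the best known ligase partner of MAGE-A proteins, had 537, 522 and 525 CPM in control and 494, 506 and 491 CPM in mutant c-Kit+ libraries (-0.10 ± 0.05, FDR = 0.13 in the same edgeR test). Huwe1 (-0.38 ± 0.09, FDR = 0.00757) and Usp7 (-0.19 ± 0.05, FDR = 0.0146) passed the FDR in the same edgeR test and missed the fold minimum. So did Rad18, named after its values were seen (-0.42 ± 0.08, FDR = 0.00273, same edgeR test). Of the 10, 6 had negative and 4 positive log2 fold changes. In Thy1+ cells 0 of the 10 were called, with or without the block.

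Genes that keep MAGE-A genes silent in other cells were not called higher. Of 7 listed, 1 was called lower in c-Kit+ mutants and 0 higher (median log2 fold change -0.29). In Thy1+ cells 0 were called, with or without the replicate block. The called gene, named after its values were seen, was Setdb1, a histone H3 lysine 9 methyltransferase (-0.71 ± 0.09, FDR = 3.41e-04, edgeR's quasi-likelihood test). Dnmt1, the maintenance DNA methyltransferase, went from 728, 729 and 675 CPM to 572, 602 and 546 CPM (-0.32 ± 0.06, FDR = 0.00182 in the same edgeR test), under the fold minimum. Ehmt2, Uhrf1 and Dnmt3a had log2 fold changes of 0.01 ± 0.05, -0.41 ± 0.05 and 0.09 ± 0.07. DNA methylation and histone marks at the MAGE-A genes were not analysed here.

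Neighbouring genes within 200 kb of the MAGE-A genes, named here after their values were seen, did not share one direction. In the proximal stretch, Gabre, a GABA receptor subunit gene, lies between Magea4 and Magea10 and was called lower in c-Kit+ mutants (-1.25 ± 0.24, FDR = 0.00261, edgeR's quasi-likelihood test), whereas Gabra3 had 1.41 ± 0.72 (FDR = 0.15). Beside the distal stretch, the claudin-like gene Cldn34b1, with at most 79 reads in a library, was called lower (-4.58 ± 0.61, FDR = 4.82e-04, same edgeR test). Sat1, a polyamine-degrading enzyme gene, was called higher (0.82 ± 0.21, FDR = 0.0102, same edgeR test), and Acot9 had -0.06 ± 0.08. None of those tested in Thy1+ cells was called, where the same test called 0% of all genes and so could not tell the neighbours from the rest.

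**Figure D5:**
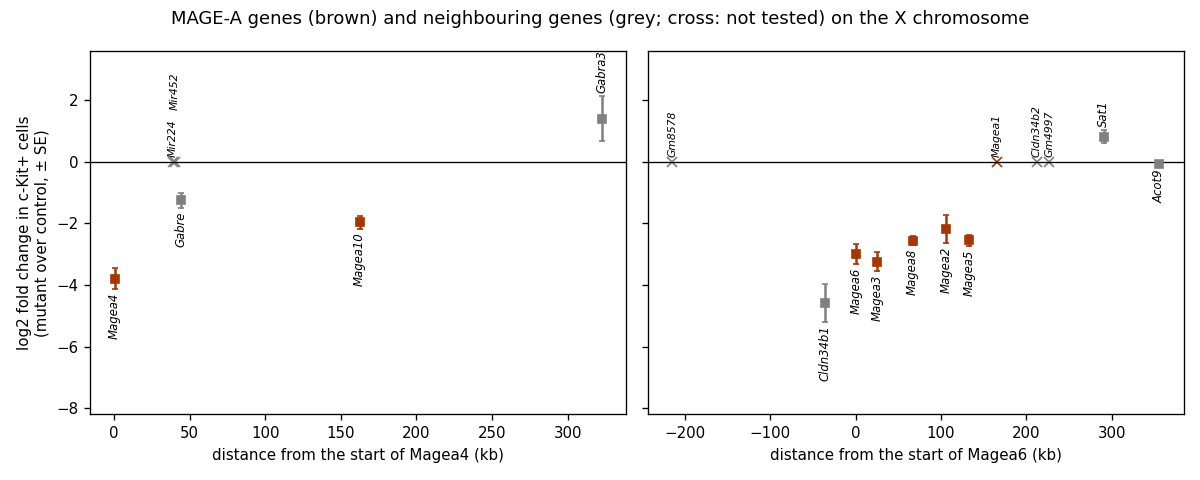
Log2 fold change in c-Kit+ cells (mutant over control, ± SE) against the distance in kb from the start of Magea4 (left) and of Magea6 (right), for MAGE-A genes (brown) and other genes within 200 kb (grey). Crosses at 0 mark genes with too few reads to test, Magea1 among them; the low MAGE-A values are interspersed with or flanked by a lower Gabre (-1.25), a lower Cldn34b1 (-4.58), a higher Sat1 (0.82) and Acot9 near 0.

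Over the 12 libraries, the 7 tested MAGE-A genes went up and down together, with Pearson's r of log2 CPM from 0.711 to 0.994 over 21 pairs (median 0.898). The points share libraries, depth and the 4 groups, and shared bases link the copies, so this is a description. Of 13676 genes ranked by the same measure, Zfp472 (r = 0.982), Rtel1 (0.976), Xrcc1 (0.974), Dcaf8l (0.974) and Trap1a (0.974) were most like Magea8. Ccdc172 (0.986), Gm773 (0.983), Zfp472 (0.982), Rtel1 (0.982) and Dcaf8l (0.981) were most like the MAGE-A sum. Likeness of pattern did not mean likeness of size: in c-Kit+ cells the log2 fold change was -0.42 for Xrcc1 and -0.65 for Rtel1, against -2.12 for Dcaf8l and -2.11 for Trap1a, both on the X chromosome.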

How the data were processed

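RNA-seq of 12 libraries was analysed; the 30 ChIP samples of the series were not analysed here. Per the labels and methods, the authors trimmed reads with Trimmomatic 0.39, aligned them to mm10 with HISAT2 2.1.0 and deposited whole-number counts per gene made with featureCounts (2.0.3 in the table header), without strand and without reads that align to several places. Of deposited counts from 1 to 19, 67.4% were even, since both reads of a fragment were counted. Symbols were matched for 25275 of 27179 Entrez identifiers.

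Counts were tested with edgeR 4.0.16 in R 4.3.3 (TMM, filterByExpr, quasi-likelihood F test, Benjamini-Hochberg over all genes tested), and called at FDR under 0.05 and absolute log2 fold change over 0.5; for the difference between both genotype effects no fold minimum applied. Each comparison used its own groups, and the difference used all 12 libraries. The alternatives were edgeR's exact test, DESeq2 1.42.0, other scalings and filters, a replicate block, the 8 genes summed, and each library left out. Deviations from group means of same-numbered libraries correlated at 0.266 to 0.490 in Thy1+ cells, 0.101 to 0.125 in c-Kit+ cells and 0.134 to 0.298 between the controls, over 0.1 in every pair, so numbers were taken to pair samples in these comparisons. The numbers come from the labels, which do not say what they share. The main fits had no block, because the study used none, and so ignore this pairing. Blocked fits are given as an alternative. Scripts were tested on simulated data. Sequences came from RefSeq (GRCm38.p6), and exons were aligned with Biopython 1.88. The members and gene lists were chosen with earlier results of these data known. Named were all 8 members, other MAGE genes called (with or without the block) or at 10 CPM or more in a group, up to 4 listed genes of highest level per list, and the 5 genes of most similar pattern per ranking.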

Additional observations from a re-analysis of the deposited data

How the results depend on the processing

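In c-Kit+ cells, all 7 MAGE-A genes tested stayed lower and called under all 15 alternatives, with medians from -2.87 (without the third mutant library) to -2.48; without the minimum fold change 3139 of all genes were called lower. In Thy1+ cells the MAGE-A fold changes stayed negative throughout (with a library left out, -4.24 to -2.71 in Magea4, -3.13 to -1.91 in Magea6 and -3.96 to -1.13 over the other 5), and the calls depended on the test: of all genes, DESeq2 called 331 lower and 53 higher, the replicate block 856 and 558, the exact test 274 and 20, and the fit of 12 libraries 236 and 14, with 7, 7, 7 and 6 MAGE-A genes among the lower. Leaving out a library gave 0 to 10 genes called lower, none MAGE-A. For the difference between Thy1+ and c-Kit+ controls, DESeq2, library size scaling and the block each called 4 MAGE-A genes lower. Leaving out a library called 0 to 5, with medians from -0.83 to -0.42. Of all genes, 1851 were lower with library size, 1454 with the block and 2357 without a minimum fold. With a library left out, 625 to 2002 were. DESeq2 lay within 625 to 2357, the range of all 15 alternatives. The difference between both genotype effects had 59 calls in DESeq2, 446 with the block and 0 to 1 with a library left out, none MAGE-A; the MAGE-A medians were then -0.93 to 0.0624. Over the libraries left out, Magea4 ranged from -1.18 to 0.50, Magea6 from -1.08 to 0.16 and Magea10 from -0.44 to 0.0624, each above 0 only without the second Thy1+ mutant library, and Magea3 from -0.14, without the third, to 0.77. The cause was not tested. The block, which pairs same-numbered libraries, changed no other MAGE-A call.

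Levels per kb depend on the unique bases, an alternative chosen after seeing the data: with unique 50-base windows, Magea2 came first in c-Kit+ controls at 20.7 CPM per kb, ahead of Magea8 at 19.9. Read length is not given in the sources used here, so neither window is preferred. Depth limits Magea1 at 0 to 2 reads and the Thy1+ mutants of Magea3, Magea4 and Magea6, which had 0 to 40 reads. It also limits the c-Kit+ mutants of the same genes, which had 11 to 38 reads. Magea2 had 19 to 56 reads in Thy1+ and 16 to 53 reads in c-Kit+ mutants.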
